A study of Sus scrofa with 4 samples.

Results

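The genes described here encode the subunits of integrins, the chains of laminins and the nidogens. They were chosen by name, from the genes in the count tables whose symbol is that of an integrin alpha or beta subunit, a laminin alpha, beta or gamma chain, or nidogen. The genes described are 32 of the 29263, namely 14 integrin alpha subunits, 8 integrin beta subunits, 8 laminin chains and both nidogens. A further 4 genes of the same families (ITGA5, ITGA7, LAMA5 and LAMB4) are listed in the tables by identifier only and were named through a separate gene name table. They are described beside the 32 and are not counted among them. ITGAD, ITGAX and LAMA2 were not analysed here.

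Integrins are cell surface receptors made of 1 alpha and 1 beta subunit, and the pairing decides what a cell can hold on to: collagens, laminins, proteins with an RGD motif such as fibronectin, or counter-receptors on other cells. Laminins are secreted trimers of an alpha, a beta and a gamma chain that polymerise into the scaffold of basement membranes, and nidogens link that scaffold to the network of type IV collagen. In the lung, basement membranes lie under the epithelium and around capillaries, smooth muscle and some interstitial cells. Leukocytes carry a set of integrins of their own, with which they adhere to vessel walls and to other cells.

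The cells came from lungs of pigs carrying an LGR5-H2B-GFP knock-in. Cells that transcribe LGR5 in these animals make histone H2B joined to green fluorescent protein. LGR5 is a receptor for R-spondins, which strengthen Wnt signals. A bright fraction (GFP-HI, 2 libraries) and a fraction without fluorescence (GFP-NEG, 2 libraries) were sorted, and both fractions carry the knock-in. The labels number the libraries as biological replicates 1 and 2 and do not tie these 4 libraries to the adult or the fetal animals, or to the antibody gates, that the shared protocol covers. The name of the deposited comparison table points to adult pigs. Since a histone fusion is stable, fluorescence can outlast transcription of the gene.

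Library totals were 24200550 and 24689986 counts for GFP-HI, against 6292253 and 7045652 counts for GFP-NEG. The counts of LGR5 were 3218 and 3073 in the GFP-HI libraries against 10 and 7 in the GFP-NEG libraries, which checks the sort. Of the 7 fibroblast markers examined, 5 were higher in GFP-HI by edgeR (71.4%, against 8.35% of all tested genes). There were 0 lower by edgeR, by DESeq2 or at an unadjusted p under 0.05. Their summed level was 55869 to 63342 CPM in GFP-HI against 6783 to 20024 CPM in GFP-NEG, where replicate 1 held the larger value. CPM are a gene's counts scaled by the library total times a factor of that library, so they do not add up to a fixed total. The largest parts of the GFP-HI sum were COL1A2 and COL1A1 (means of 26828 and 15696 CPM), which were not called. Of 9 leukocyte markers 7 were lower in GFP-HI, with summed levels of 319 to 530.2 CPM against 2372 to 2906 CPM, and 7 of 7 endothelial markers were lower, with 181 to 182 CPM against 562 to 1297 CPM. Of 8 epithelial markers 3 were lower (37.5%, against 27.6% of all tested genes), with 221 to 236 CPM against 171 to 580.4 CPM. None of the tested markers of these 4 lists was at 0 in any library. Between the GFP-NEG libraries, the summed fibroblast, endothelial and epithelial markers were higher in replicate 1 and the leukocyte markers higher in replicate 2.

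Several laminin and nidogen genes rose in GFP-HI, and the leukocyte integrin genes ITGA4, ITGB7, ITGAM, ITGB2 and ITGAL fell. Of the 32 members, all of which were tested, 7 were higher and 7 lower in GFP-HI. The test was edgeR's quasi-likelihood test with a limit of 0.05 on the p-value, adjusted by Benjamini-Hochberg over all 19682 tested genes. Each count is 21.9% of the members, against 8.35% of all tested genes called higher and 27.6% called lower. The higher members were LAMA4, LAMB1, LAMC1, LAMC3, NID1, ITGB8 and ITGA9. The lower ones were ITGA4, ITGB7, ITGAM, ITGB2, ITGAL, ITGA6 and ITGB4. The median log2 fold change was 0.59 over the members, 1.94 over the 10 laminins and nidogens, 0.37 over the 22 integrins and -0.25 over all tested genes. The integrin median changed sign with library size alone (-0.085) and without GFP-HI replicate 2 (-0.0142). The laminin and nidogen median was 3.19 without GFP-NEG replicate 1 and 1.13 without GFP-NEG replicate 2, and that of the members 1.16 and 0.215. Both GFP-HI libraries lay above both GFP-NEG libraries for 14 members (43.8%, against 27.7% of all tested genes), and below both for 8 (25.0%, against 42.0%).

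With the replicate number added as a block, 11 members were higher and 7 lower. The 11 held the 7 named above and ITGA8, ITGAV, LAMB2 and NID2. Among the members, single libraries weighed on the higher calls far more than on the lower ones. Over all tested genes both the higher and the lower calls depended on single libraries. Leaving out GFP-NEG replicate 1 gave 11 higher members and leaving out GFP-NEG replicate 2 gave 1. Leaving out GFP-HI replicate 1 gave 3 and GFP-HI replicate 2 gave 4, while the number of lower members stayed between 5 and 6. In each of these fits the remaining library of the group is assumed to vary like the other group.

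**Figure D1:**
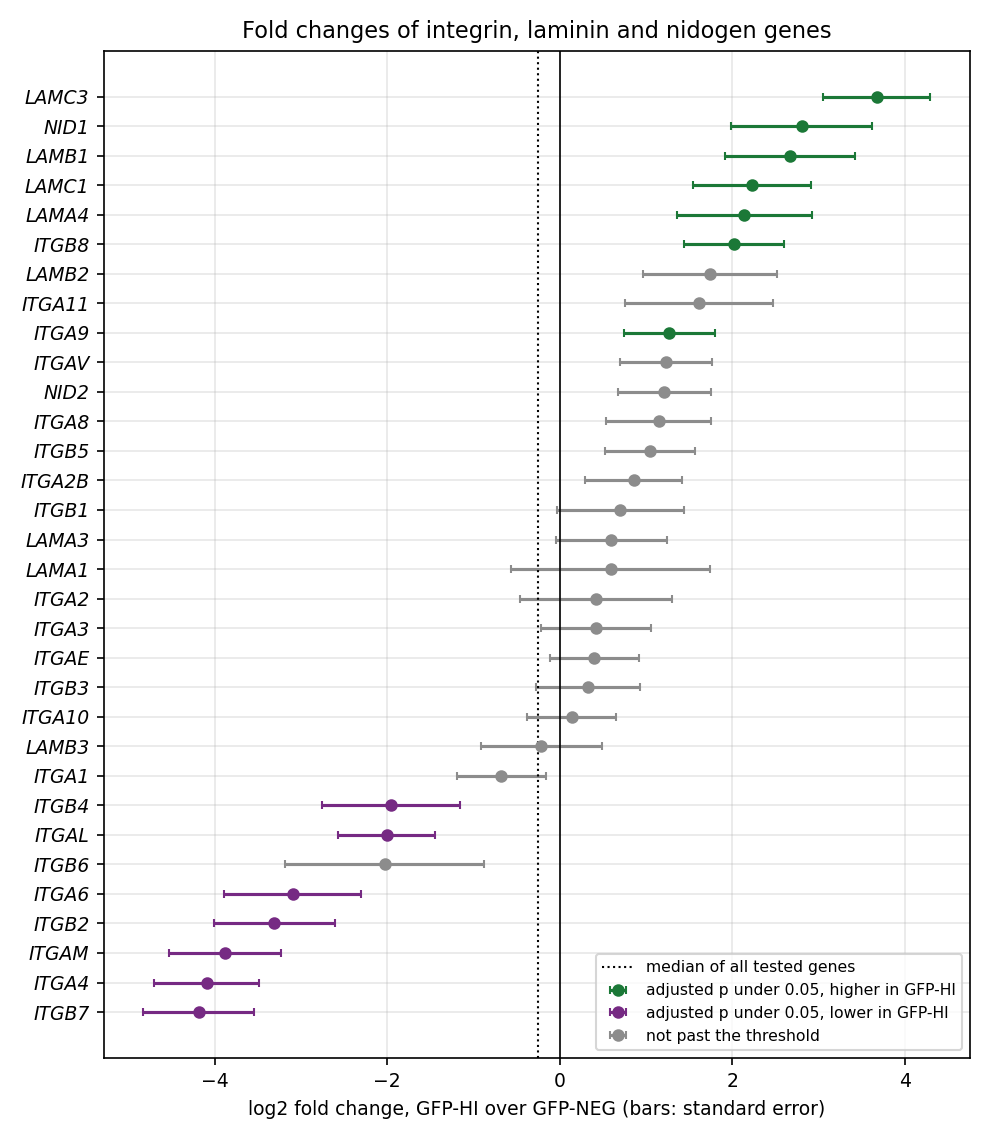
Log2 fold change of each of the 32 members, GFP-HI over GFP-NEG, with its standard error as a bar (edgeR, 2 libraries in each group). The 7 members past the threshold to the right are 4 laminin chains, NID1, ITGB8 and ITGA9, the 7 to the left are all integrins, and the dotted line is the median of all tested genes at -0.25.

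The laminin and nidogen genes are given first, beginning with the chains of the mesenchymal and vascular laminins. LAMA4, the alpha chain of laminins made by mesenchymal, endothelial and muscle cells, was at 1022 and 864 CPM in GFP-HI and at 377 and 51.3 CPM in GFP-NEG. All CPM values are scaled by the TMM method, are not corrected for transcript length, and can be compared between libraries for 1 gene but not between genes. The lower GFP-HI value was above the higher GFP-NEG value, and the GFP-NEG libraries differed 7.34-fold. On the log2 scale LAMA4 rose by 2.14 ± 0.78 (SE; edgeR, adjusted p of 0.021).

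LAMB1, a beta chain that combines with several alpha chains, was at 891 and 559.8 CPM in GFP-HI and at 199.5 and 28.4 CPM in GFP-NEG. It rose by 2.67 ± 0.75 (log2; adjusted p of 0.0018, edgeR). LAMC1, the gamma chain of most laminins, was at 509 and 411 CPM against 169 and 27.4 CPM and rose by 2.23 ± 0.68 (adjusted p of 0.0047, edgeR). In both genes the GFP-HI libraries differed less (1.59-fold and 1.24-fold) than the GFP-NEG libraries (7.03-fold and 6.18-fold).

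LAMB2, the other broadly used beta chain, was at 1119 and 676 CPM in GFP-HI and at 444 and 94.1 CPM in GFP-NEG. The groups did not overlap, but the log2 fold change of 1.74 ± 0.78 was not past the threshold (adjusted p of 0.066, edgeR). LAMB2 passed with the replicate block (log2 fold change 2.09), with DESeq2 (1.74) and without GFP-NEG replicate 1 (3.31).

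NID1, a nidogen that binds the gamma chain of laminin, was at 1252 and 946 CPM in GFP-HI and at 254 and 60.7 CPM in GFP-NEG. It rose by 2.80 ± 0.82 (adjusted p of 0.0028, edgeR). Its relative NID2 was at 139 and 87.2 CPM against 84.0 and 13.9 CPM, so that GFP-HI replicate 2 and GFP-NEG replicate 1 were nearly equal. Its log2 fold change of 1.21 ± 0.54 was not past the threshold (adjusted p of 0.067, edgeR), and was 1.68 and past it with the replicate block. The size of the difference between NID1 and NID2 was not tested.

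For these 6 genes (LAMA4, LAMB1, LAMB2, LAMC1, NID1 and NID2) the summed level was 4932 and 3544 CPM in GFP-HI and 1527 and 276 CPM in GFP-NEG. GFP-NEG replicate 1 exceeded GFP-NEG replicate 2 by 4.19-fold to 7.34-fold in each of them. A ratio of at least 4 between these libraries, a limit chosen after the values were seen, was found for 10 of the 32 members and for 4.50% of all tested genes. The fibroblast markers differed in the same direction, with a median ratio of 3.66 over 7 genes. So did the summed smooth muscle and pericyte markers, at 2356 CPM in GFP-NEG replicate 1 against 371 CPM in GFP-NEG replicate 2. In the same order the endothelial sums were 1297 and 562 CPM and the epithelial sums 580.4 and 171 CPM. The leukocyte sums, at 2372 and 2906 CPM, went the other way. The part of these cell types in the fold changes of the 6 genes was not tested. In these bulk samples fewer cells of a type and less RNA per cell cannot be told apart.

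Leaving out 1 library changed the sizes accordingly. Without GFP-NEG replicate 1 the log2 fold changes were 4.25 for LAMA4, 4.73 for LAMB1, 4.12 for LAMC1, 4.23 for NID1 and 3.07 for NID2. Without GFP-NEG replicate 2 they were 1.29, 1.82, 1.41, 2.07 and 0.39 in the same order, and none of these 5 genes was past the threshold. Without GFP-HI replicate 1 LAMA4 (2.10), LAMB1 (2.38) and LAMC1 (2.15) lost their calls, and without GFP-HI replicate 2 LAMA4 (2.29) and LAMC1 (2.41) did. The calls of LAMA4 (2.09) and LAMC1 (2.17) were also lost when only genes with at least 10 counts in 2 libraries were tested. NID1 kept its call in both of these fits.

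LAMC3, a gamma chain described in skin, testis and the nervous system, went another way among the libraries. It was at 24.1 and 53.7 CPM in GFP-HI and at 0.776 and 5.15 CPM in GFP-NEG, so that in each group replicate 2 was the higher library. The GFP-NEG values rest on 5 and 47 counts. Its log2 fold change of 3.67 ± 0.62 was the largest rise among the members (adjusted p of 2.8e-07, edgeR). LAMC3 stayed past the threshold in every one of the 12 alternative fits, with values of 2.96 without GFP-NEG replicate 1 and 5.59 without GFP-NEG replicate 2. It was the only member called higher without GFP-NEG replicate 2.

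The chains of epithelial laminins were not called. LAMA3 and LAMB3 are chains of a laminin that anchors epithelial cells through hemidesmosomes. LAMA3 was at 17.6 and 10.5 CPM in GFP-HI and at 15.4 and 3.29 CPM in GFP-NEG (log2 fold change 0.60 ± 0.64, edgeR adjusted p of 0.50). LAMB3 had 13.0 and 3.67 CPM against 13.5 and 5.92 CPM (-0.21 ± 0.70). The groups overlapped in both genes. LAMA1, an early embryonic alpha chain, lay between 1.32 and 4.02 CPM in the 4 libraries and overlapped as well (log2 fold change 0.59 ± 1.16). LAMA5, which is named by identifier and is a major alpha chain under adult epithelium and endothelium, had 51.9 and 18.3 CPM against 52.3 and 14.5 CPM (0.08 ± 0.52, adjusted p of 0.93, edgeR). LAMB4 was not tested, with 0 and 0 counts in the GFP-HI libraries against 4 and 38 in the GFP-NEG libraries. Of the 10 laminins and nidogens 5 were higher by edgeR (50%, against 8.35% of all tested genes) and 0 lower (against 27.6%). At an unadjusted p under 0.05, 7 were higher and 0 lower, and DESeq2 called 6 higher and 0 lower.

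**Figure D2:**
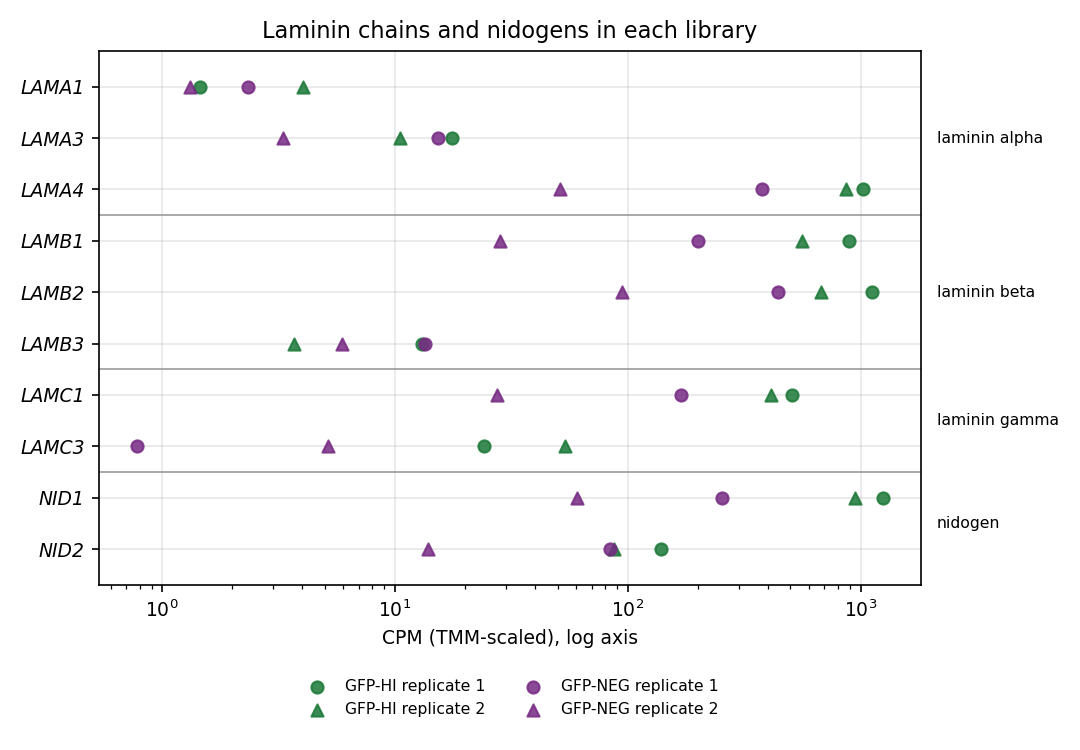
Level of each laminin chain and nidogen in the 4 libraries, as TMM-scaled CPM on a log axis, with GFP-HI in green, GFP-NEG in purple, replicate 1 as circles and replicate 2 as triangles. In the rows of LAMA4, LAMB1, LAMB2, LAMC1, NID1 and NID2 both green symbols lie to the right of both purple ones and GFP-NEG replicate 2 is far to the left, whereas in LAMC3 GFP-NEG replicate 1 is the lowest.

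Of the alpha subunits that bind RGD proteins, ITGA8, ITGAV and ITGA2B had positive values and ITGA5 a negative one, without a call in the unpaired fit (0 of the 3 members among them called by edgeR or DESeq2, and 1, ITGAV, at an unadjusted p under 0.05). ITGA8, whose pair with the beta 1 subunit binds nephronectin and which marks several lung mesenchymal cell types, was at 317 and 179.7 CPM in GFP-HI and at 211 and 13.4 CPM in GFP-NEG. GFP-NEG replicate 1 thus lay between the GFP-HI libraries. The log2 fold change was 1.15 ± 0.61 (adjusted p of 0.14, edgeR). It was 2.15 and past the threshold with the replicate block, 4.26 and past it without GFP-NEG replicate 1, and 0.19 without GFP-NEG replicate 2. The gene of its ligand, NPNT, was at 169 and 68.4 CPM in GFP-HI and at 273 and 10.2 CPM in GFP-NEG, and its log2 fold change of -0.26 was not past the threshold (1.00 with the replicate block, also not past it, and 3.59 and past it without GFP-NEG replicate 1).

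ITGAV, the alpha subunit shared by several beta subunits, was at 120.3 and 82.7 CPM against 76.2 and 10.5 CPM. The groups did not overlap, by a small margin, and the log2 fold change was 1.23 ± 0.53 (adjusted p of 0.058, edgeR). With the replicate block it was 1.80 and past the threshold, as it was without GFP-NEG replicate 1 (3.32). ITGA5, the fibronectin receptor subunit, is named by identifier. It had 165 and 59.3 CPM against 165 and 109 CPM, with overlapping groups and a log2 fold change of -0.29 ± 0.57.

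ITGA2B, known as the alpha subunit of the platelet fibrinogen receptor, was read at 114.6 and 172 CPM in GFP-HI and at 84.2 and 73.8 CPM in GFP-NEG (log2 fold change 0.86 ± 0.56, adjusted p of 0.24, edgeR). Its partner ITGB3 was at 10.6 and 20.2 CPM against 13.2 and 11.3 CPM, with overlapping groups (0.33 ± 0.60, and -0.11 with scaling by library size alone). Of other platelet genes, PPBP, a platelet chemokine, lay between 5.48 and 19.9 CPM, GP9, a platelet adhesion receptor subunit, had 5.80 and 3.87 CPM in GFP-HI against 0.932 and 1.43 CPM, the summed level of 5 platelet markers lay between 11.2 and 24.3 CPM, GP1BA was at 0 in GFP-HI replicate 2, and TREML1 had 0 counts in 3 libraries and 2 in the other. Of the platelet list 3 genes could be tested and 0 were called by edgeR, by DESeq2 or at an unadjusted p under 0.05.

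The 4 collagen-binding alpha subunits gave no call (0 of 4 by edgeR, by DESeq2 and at an unadjusted p under 0.05). ITGA11, a receptor for fibrillar collagens found on fibroblasts, was at 10.9 and 6.20 CPM in GFP-HI and at 4.35 and 1.32 CPM in GFP-NEG. Its groups did not overlap and its log2 fold change was 1.61 ± 0.85 (adjusted p of 0.13, edgeR), or 2.75 and past the threshold without GFP-NEG replicate 1. ITGA1, a receptor for type IV collagen, was at 31.4 and 22.7 CPM against 74.5 and 12.1 CPM, so that the GFP-NEG libraries lay on either side of GFP-HI. Its log2 fold change was -0.68 ± 0.52, and 1.22 without GFP-NEG replicate 1. ITGA10, known from cartilage, had 29.2 and 39.5 CPM against 44.7 and 17.9 CPM (0.14 ± 0.52, but -0.13 with upper-quartile scaling, -0.23 with library size alone and -0.02 with thinned GFP-HI counts). ITGA2 lay between 3.51 and 6.89 CPM, with overlapping groups.

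Of the laminin-binding subunits, ITGA6, ITGB4 and ITGA7 fell in GFP-HI and ITGA3 was not called. ITGA6, a laminin receptor of epithelial and endothelial cells, was at 1.36 and 1.98 CPM in GFP-HI and at 16.6 and 12.1 CPM in GFP-NEG. It fell by 3.09 on the log2 scale (SE 0.79, adjusted p of 5.4e-04, edgeR) and kept its call in all 12 alternative fits. ITGB4, its partner in hemidesmosomes, was at 2.17 and 3.37 CPM against 15.1 and 6.58 CPM and fell by 1.96 (SE 0.80, adjusted p of 0.042, edgeR). The call of ITGB4 was lost in 5 alternative fits, among them those without GFP-NEG replicate 1 (log2 fold change -1.19), without GFP-HI replicate 1 (-1.56) and without GFP-HI replicate 2 (-2.24). ITGA7, the laminin receptor of muscle, is named by identifier and was at 3.67 and 1.98 CPM against 34.6 and 14.1 CPM, a fall of 3.10 (SE 0.66, adjusted p of 5.0e-05, edgeR). ITGA3, found mainly on epithelia, was at 16.0 and 10.5 CPM against 7.76 and 11.9 CPM, with overlapping groups (0.42 ± 0.64, and -0.03 with library size alone). Endothelial markers were lower in GFP-HI in 7 of 7 tested genes. Epithelial markers were lower in 3 of 8 (37.5%, against 27.6% of all tested genes). Smooth muscle and pericyte markers were also lower in 3 of 8 (2 by DESeq2), with 2 of those 8 higher. The part of these cell types in the falls of ITGA6, ITGB4 and ITGA7 was not tested.

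**Figure D3:**
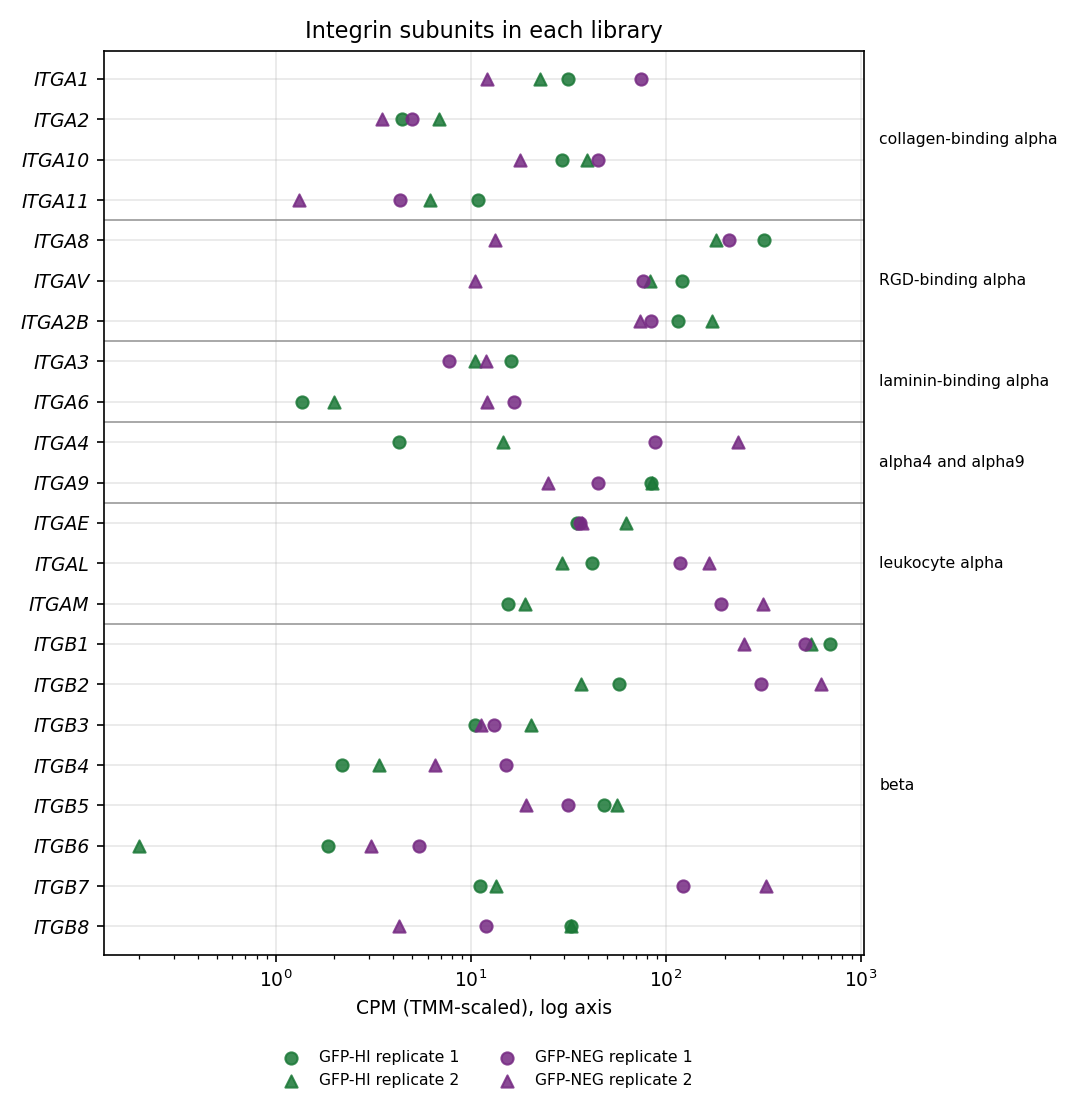
Level of each integrin subunit in the 4 libraries, as TMM-scaled CPM on a log axis, ordered by the role of the subunit, with GFP-HI in green, GFP-NEG in purple, replicate 1 as circles and replicate 2 as triangles. ITGA4, ITGAM, ITGAL, ITGB2 and ITGB7 have both green symbols far to the left of both purple ones, while in the RGD-binding group ITGA8 and ITGAV have GFP-NEG replicate 2 apart from the other 3 libraries.

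The 4 largest falls among the members were in leukocyte integrins. ITGB7, the beta subunit of lymphocyte homing receptors, was at 11.15 and 13.4 CPM in GFP-HI and at 122 and 324 CPM in GFP-NEG. It fell by 4.18 on the log2 scale (SE 0.64, adjusted p of 1.0e-08, edgeR). ITGA4, which pairs with ITGB7 or ITGB1 and binds VCAM1 and fibronectin, was at 4.26 and 14.6 CPM against 87.9 and 234 CPM and fell by 4.09 (SE 0.61, adjusted p of 3.6e-09, edgeR). ITGAM, the alpha subunit of the complement receptor of neutrophils and macrophages, was at 15.5 and 18.8 CPM against 191 and 316 CPM and fell by 3.88 (SE 0.65, adjusted p of 1.5e-07, edgeR).

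ITGB2, the beta subunit that pairs with ITGAM, was at 57.5 and 36.7 CPM against 307 and 625 CPM and fell by 3.31 (SE 0.70, adjusted p of 5.1e-05, edgeR). ITGAL, which joins ITGB2 in the lymphocyte receptor for ICAM proteins, was at 41.8 and 29.2 CPM against 118 and 167 CPM and fell by 2.00 (SE 0.56, adjusted p of 0.0017, edgeR). In all 5 genes both GFP-HI libraries lay below both GFP-NEG libraries, as they did for 42.0% of all tested genes. GFP-NEG replicate 2 held the higher GFP-NEG value in each of the 5. The calls of ITGA4, ITGAM, ITGB2 and ITGB7 held in the 12 alternative fits, and ITGAL lost its call without GFP-HI replicate 2 (-1.67) and without GFP-NEG replicate 2 (-1.77). The leukocyte markers were lower in 7 of 9 genes, and their part in these falls was not tested.

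ITGAE, the alpha subunit of intraepithelial lymphocytes and another partner of ITGB7, was not called. It was at 34.8 and 62.2 CPM in GFP-HI and at 36.2 and 37.3 CPM in GFP-NEG, with overlapping groups and no call (log2 fold change 0.40 ± 0.51, edgeR adjusted p of 0.58), and a value of -0.06 with library size alone. In the RefSeq table of assembly Sscrofa11.1 the span of ITGAE overlaps that of GSG2, a protein kinase gene, and the counting does not state whether strand was used, so that reads of these genes may be shared. Of the 32 members, 11 overlap another gene in that table and 3 (ITGA1, ITGA2 and ITGAE) overlap a protein-coding gene. None of these 3 was called by edgeR or DESeq2, or had an unadjusted p under 0.05.

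Of the integrin subunits, ITGB8 and ITGA9 were higher in GFP-HI. They were 2 of the 22 integrin members (9.09%, against 8.35% of all tested genes). The 7 integrin members called lower were 31.8%, against 27.6%, so both shares were near those of all tested genes. ITGB8 pairs with ITGAV, and this receptor binds the latent form of TGF-beta and releases its activity. It was at 32.8 and 32.6 CPM in GFP-HI and at 12.0 and 4.28 CPM in GFP-NEG, so that the GFP-HI libraries were nearly equal and above both others. It rose by 2.02 ± 0.58 (log2; adjusted p of 0.0023, edgeR), and by 1.41 and without a call when GFP-NEG replicate 2 was left out. LTBP1, which stores latent TGF-beta in the matrix and is here among the partner genes, was at 2005 and 1703 CPM against 293 and 65.6 CPM and rose by 3.37 ± 0.93 (adjusted p of 0.0015, edgeR), or by 2.62 and without a call when GFP-NEG replicate 2 was left out. TGFB1, a gene for the growth factor itself, was at 11.05 and 12.2 CPM against 24.5 and 63.3 CPM and fell by 1.92, a call that was lost without GFP-NEG replicate 2 (-1.11), GFP-HI replicate 1 (-1.67) or GFP-HI replicate 2 (-1.87).

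ITGA9, whose pair with the beta 1 subunit binds tenascin C and SVEP1, was at 83.4 and 84.8 CPM in GFP-HI and at 44.9 and 25.0 CPM in GFP-NEG. The groups did not overlap and the log2 fold change was 1.27 ± 0.53 (adjusted p of 0.045, edgeR). This call was close to the threshold and was lost in 10 of the 12 alternative fits, in which the value stayed positive. The value was 0.87 without GFP-NEG replicate 2 and 1.80 when the other GFP-NEG library was left out, 1.40 without GFP-HI replicate 1 and 1.32 without GFP-HI replicate 2. The ligand genes TNC and SVEP1 rose by 2.80 and 1.59 (adjusted p of 0.0095 and 0.024, edgeR; SVEP1 was not called by DESeq2, at 0.054), without a call when GFP-NEG replicate 2 (1.94 and 0.86), GFP-HI replicate 1 (2.55 and 1.16) or GFP-HI replicate 2 (3.10 and 2.02) was left out.

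The remaining beta subunits were not called. ITGB1, the partner of most alpha subunits, was at 689 and 551 CPM in GFP-HI and at 513 and 249.8 CPM in GFP-NEG, and its groups were apart by less than the spread within either group (log2 fold change 0.70 ± 0.73, adjusted p of 0.49, edgeR). ITGB5, which pairs with ITGAV, was at 48.3 and 55.9 CPM against 31.4 and 19.2 CPM (1.04 ± 0.52, adjusted p of 0.11, edgeR). ITGB6, the epithelial partner of ITGAV, was at 1.86 and 0.198 CPM against 5.43 and 3.07 CPM (-2.03 ± 1.15, adjusted p of 0.17, edgeR), and the lowest value rests on 4 counts.

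**Figure D4:**
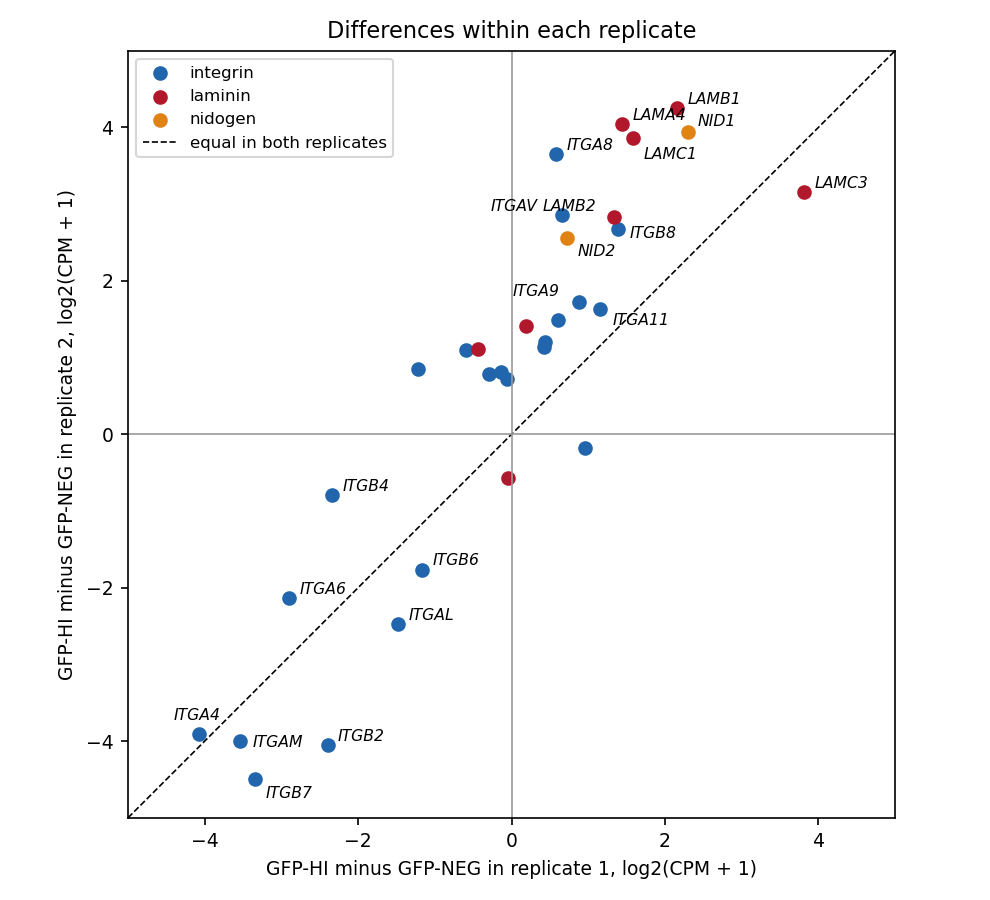
Difference between GFP-HI and GFP-NEG in log2(CPM + 1) for each of the 32 members, in replicate 1 (horizontal) and replicate 2 (vertical), with integrins in blue, laminins in red, nidogens in orange and a dashed line where both replicates are equal. LAMA4, LAMB1, LAMC1, NID1, ITGA8 and ITGAV lie well above the line, ITGA4 and ITGAM close to it at the lower left, and LAMC3 below it.

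Within replicates, 25 of the 32 members had the same sign in both, as had 15724 of all 19682 tested genes, a similar share. The difference in log2(CPM + 1), GFP-HI minus GFP-NEG, had a median over the members of 0.30 in replicate 1 and 1.13 in replicate 2, against -0.16 and -0.33 over all tested genes. For the laminins and nidogens the medians were 1.39 and 2.99, and for the 22 integrins -0.22 and 0.80, with opposite signs. LAMA4 differed by 1.44 in replicate 1 and by 4.05 in replicate 2, LAMB1 by 2.15 and 4.25, and ITGA8 by 0.58 and 3.65. By contrast, ITGA4 differed by -4.08 and -3.91, and ITGA6 by -2.90 and -2.13. The rise was smaller in replicate 1 than in replicate 2 for LAMA4, LAMB1, LAMB2, LAMC1, NID1 and NID2, but not for LAMC3, which differed by 3.82 and 3.15. With 1 pair in each replicate these differences were not tested.

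**Figure D5:**
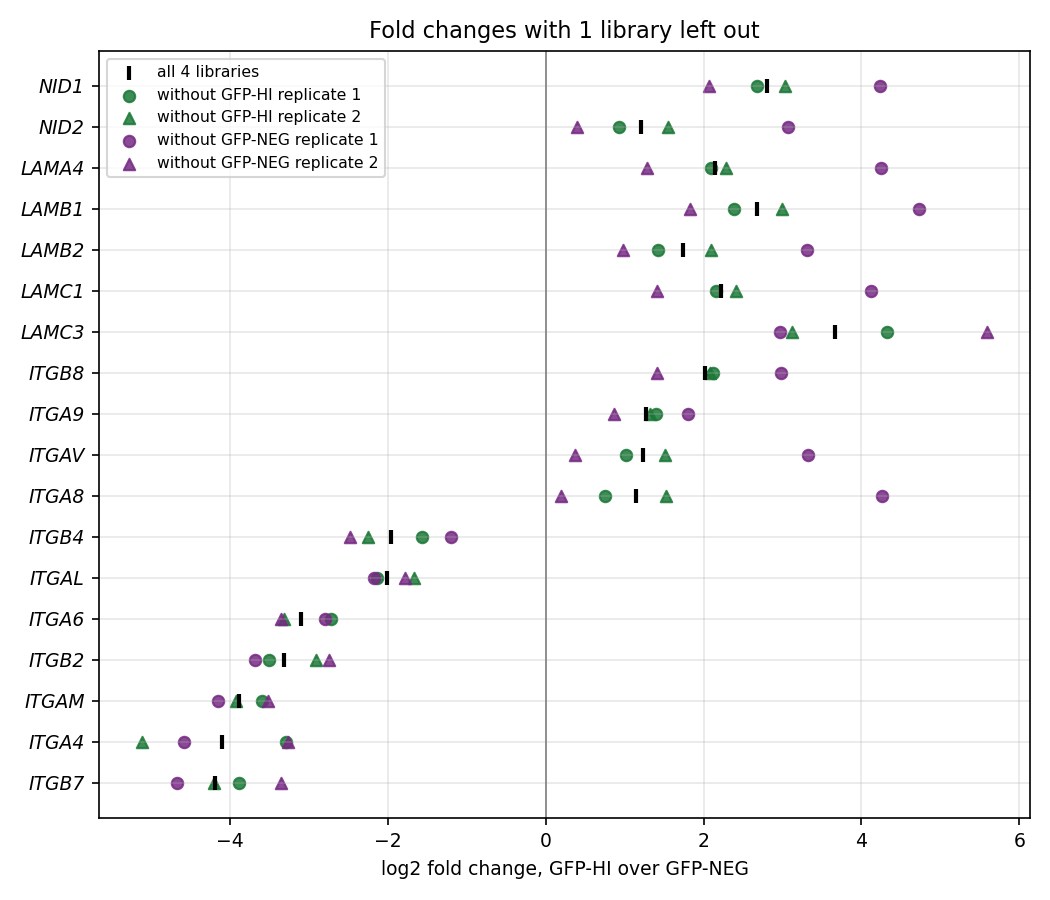
Log2 fold change of 18 members with all 4 libraries (black bars) and with each library left out in turn (green for a GFP-HI library left out, purple for a GFP-NEG library, circles for replicate 1 and triangles for replicate 2). For NID1, NID2, LAMA4, LAMB1, LAMB2, LAMC1, ITGAV and ITGA8 the purple circles lie far to the right, as in LAMA4 at 4.25 against 2.14, while ITGAM stays between -4.15 and -3.51.

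Genes that work with the members were read from a list of 66 integrin adaptors, integrin ligands and basement membrane genes, of which 65 were tested. Of these 20 were higher and 7 lower in GFP-HI (30.8% and 10.8%, against 8.35% and 27.6% of all tested genes), with a median log2 fold change of 0.86. Without GFP-NEG replicate 2 only 2 were higher (FREM1 and FREM2), without GFP-HI replicate 1 there were 8 and without GFP-HI replicate 2 there were 11, while 4, 3 and 5 were lower without GFP-HI replicate 1, without GFP-HI replicate 2 and without either GFP-NEG library.

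Basement membrane genes and laminin receptors rose in 11 of 23 cases by edgeR (47.8%, against 8.35% of all tested genes) and fell in 0 (against 27.6%). DESeq2 called 9 higher and 0 lower, and 12 were higher and 1 lower at an unadjusted p under 0.05. FREM1 and FREM2, which encode matrix proteins of the embryonic basement membrane under the epidermis, had the largest and the third largest rise of the list. FREM1 was at 123 and 75.2 CPM in GFP-HI and at 2.48 and 5.26 CPM in GFP-NEG and rose by 4.66 ± 0.61 (adjusted p of 1.7e-11, edgeR). FREM2 was at 90.9 and 65.9 CPM against 10.1 and 7.13 CPM and rose by 3.19 ± 0.56 (adjusted p of 7.6e-07, edgeR). Both kept their calls in all 12 alternative fits.

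The type IV collagen chain COL4A5 was at 225 and 233 CPM against 52.3 and 13.2 CPM and rose by 2.81 ± 0.62 (adjusted p of 8.0e-05, edgeR). COL4A6, which pairs with it, rose by 2.54, the vessel-associated collagen COL15A1 by 2.63, the heparan sulphate proteoglycan HSPG2 by 2.40 and the laminin-binding netrin NTN4 by 2.21, and each of these 5 genes lost its call without GFP-NEG replicate 2 (values between 1.503 and 2.09). HSPG2 also lost it without GFP-HI replicate 1 (2.01). The other calls were nearer to the threshold: the laminin receptor DAG1 rose by 1.51, the syndecan SDC1 by 1.44, the collagen-crosslinking peroxidase PXDN by 1.49 and COL4A2 by 1.49. The call of COL4A2 was lost in 10 of the 12 alternative fits, and DESeq2 called neither COL4A2 (adjusted p of 0.059) nor PXDN (0.101) or SDC1 (0.066). In this order they were at 1.03, 0.88, 0.70 and 0.77 without GFP-NEG replicate 2, at 1.31, 1.32, 0.87 and 1.38 without GFP-HI replicate 1 and at 1.82, 1.70, 2.00 and 1.71 without GFP-HI replicate 2, each time without a call.

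Among the adaptors that tie integrins to actin, PARVA rose and PARVG and FERMT3 fell. PARVA, the widely expressed parvin, was at 305 and 214 CPM in GFP-HI against 80.9 and 19.7 CPM and rose by 2.37 ± 0.62 (adjusted p of 7.4e-04, edgeR; 1.64 and no call without GFP-NEG replicate 2). PARVG, the parvin of blood cells, was at 4.89 and 14.5 CPM against 89.9 and 151 CPM and fell by 3.63 (SE 0.58, adjusted p of 3.1e-08, edgeR). FERMT3, the kindlin of blood cells, was at 51.9 and 56.7 CPM against 212 and 286 CPM and fell by 2.20 (SE 0.61, adjusted p of 0.0016, edgeR), with no call without GFP-HI replicate 1 (-1.98), GFP-HI replicate 2 (-2.16) or GFP-NEG replicate 2 (-2.002). FERMT2, the kindlin of most adherent cells, had a log2 fold change of 0.98 that was not past the threshold, and 1.56 with a call in the fit with the replicate block.

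The kinase gene PTK2B, expressed in blood cells and neurons, was at 15.8 and 5.55 CPM against 168 and 62.2 CPM and fell by 3.43 (SE 0.57, adjusted p of 1.4e-07, edgeR), while focal adhesion kinase, PTK2, had 0.96 and no call. Talin 2 (TLN2) rose by 1.92 and talin 1 (TLN1) had -0.36 and no call. The scaffold genes KANK2 (1.88), BCAR1 (1.82, with overlapping groups) and TGFB1I1 (1.42) were also called higher by edgeR, while DESeq2 did not call BCAR1 or TGFB1I1. Without GFP-NEG replicate 2 the values were 1.09 for TLN2, 1.06 for KANK2, 0.91 for BCAR1 and 0.60 for TGFB1I1, and without GFP-HI replicate 1 they were 1.70, 1.33, 0.22 and 1.05, all without a call. KANK2 (2.35) and TGFB1I1 (1.80) had no call without GFP-HI replicate 2 either.

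Of 15 tested ligand genes 4 were higher and 4 lower (26.7% each), and the share called lower is near the 27.6% of all tested genes. Besides LTBP1, TNC and SVEP1, MFGE8, an RGD protein, rose by 1.61, with no call without GFP-NEG replicate 2 (1.02), GFP-HI replicate 1 (1.39) or GFP-HI replicate 2 (1.93). Besides TGFB1, ICAM3, a leukocyte ligand of ITGAL, was at 0.861 and 2.63 CPM against 11.2 and 9.98 CPM and fell by 2.60 (SE 0.85, adjusted p of 0.0089, edgeR), with no call without GFP-HI replicate 1 (-1.87). CDH1, the epithelial cadherin that ITGAE binds, fell by 1.69, with no call without GFP-NEG replicate 1 (-1.37) or GFP-HI replicate 2 (-0.96). EDIL3, an RGD protein, was called lower at -1.60 although its groups overlapped, and its value was 0.50 without GFP-NEG replicate 1. It was -1.29 when GFP-HI replicate 1 was left out, -1.84 without GFP-HI replicate 2 and -1.03 with the replicate block, in each case without a call.

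In the authors' deposited table the log2 fold changes of the members were close to those given here, such as 2.14 for LAMA4, 3.67 for LAMC3 and -4.20 for ITGB7. That table also has LAMB2 past an adjusted p of 0.05 (0.033) and ITGA9 outside it (0.060).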

How the data were processed

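RNA sequencing libraries of GFP-HI and GFP-NEG lung cells (2 each) were compared. The authors deposited raw gene-level counts of each library, and a table of the comparison with log2 fold changes, p-values, a test statistic (score), a mean normalized signal and the same counts, per the file headers. Per the submitters' processing notes featureCounts, Subread 1.5.2 and DESeq2 1.37.6 were used. The settings and the use of strand are not given in the sources used here. No label or header names the build, and a number in the name of the comparison table, after the word annotated, was not used for coordinates. In the deposited comparison table, 4 columns of normalized values were not used. Of the identifiers, 834 were named through the gene name table.

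Groups were compared with edgeR 4.0.16 (the quasi-likelihood test, TMM scaling, filterByExpr, group as the only term; R 4.3.3) on 19682 genes, which held 99.8% of counts, with Benjamini-Hochberg adjustment and a threshold of 0.05. The prior degrees of freedom were infinite, so a gene's own scatter carried no weight in its p-value or SE, and a gene with overlapping groups can be called. CPM was computed here, with 1 count worth 0.0453 to 0.155 CPM, and a pseudocount of 1 CPM was added for differences within a replicate. SE is the log2 fold change divided by the square root of F. Alternatives were RLE, upper-quartile and library-size scaling, 2 other filters on low counts, DESeq2 1.42.0, the replicate block, GFP-HI counts thinned to the mean GFP-NEG total, and each library left out.

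The labels number the replicates and name no animal. Headings of the 4 unused columns name pig 1 and pig 2, from which the pairing by number is taken, but 2 of these headings do not match the library whose counts their values follow. The fit with the replicate block rests on that pairing. Replicate deviations of the 2 groups correlated at r = 0.19 across 19682 genes. P-values of the fit with group alone rest on a spread shared by genes of similar level in these 4 libraries, not on a gene's own spread. In simulated data with 18985 tested genes, 22.3% of changes of 3 on the log2 scale and 0% of changes of 2 were recovered, with 0 false among 23 calls. There 103 tested genes were changed by 3 and 90 by 2, far fewer than were called in the real data, so the adjustment was stricter. Of the genes the name rule finds, 1 stayed in the fits and is not reported here. Members and lists were chosen with earlier results of these data known. Members were named if called or at 10 CPM or more on average, and the others are given too. NPNT, PTK2, FERMT2 and TLN1 were named after their values were seen. EGFL7, PF4, MADCAM1, MSLN and UPK3B were not analysed here. Of the remaining lists, WT1 had at most 24 counts in a library, and of the Schwann cell list SOX10 alone was tested and not called.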

Additional observations from a re-analysis of the deposited data

How the results depend on the processing

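With 2 libraries in each group and less depth in GFP-NEG, a missing call does not show a lack of change. Few changes of 2 or 3 on the log2 scale were called in simulated data. Far fewer genes were changed there than were called in the real data, which makes the adjustment stricter. The simulated shares therefore do not measure the recovery in the real data. Over all tested genes the median change on the log2 scale was -0.25, -0.58 with upper-quartile scaling and -0.68 with library size alone. It ranged from -0.587 to 0.0324 over the fits without 1 library.

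Of all tested genes 1643 were higher and 5433 lower. Upper-quartile scaling gave 1083 higher, library size alone 888, and the filter of at least 10 counts in 2 libraries 951 higher and 3182 lower. Thinned GFP-HI counts gave 3616 lower. Without 1 library the higher genes ranged from 216 to 1635 and the lower ones from 1575 to 4999. Members called higher numbered 7, 4 with the filter of at least 10 counts and 11 with the replicate block, and 1 to 11 without 1 library. Members called lower numbered 7, and 5 to 6 without 1 library. Besides the 4 members it added, the block gave a call to FERMT2 and removed that of EDIL3, and changed no other call of a gene named here. Partner genes called higher numbered 20, 13 with library size alone, 10 with the filter of at least 10 counts, and 2 to 26 without 1 library. Those called lower numbered 7, and 3 to 5 without 1 library.

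Signs changed only for genes without a call, except EDIL3 (0.50 without GFP-NEG replicate 1, lowest -2.46). With library size alone ITGA10 was at -0.23, ITGA3 at -0.0292, ITGAE at -0.0566, ITGB3 at -0.11 and LAMA5 at -0.22. With upper-quartile scaling ITGA10 was at -0.13 and LAMA5 at -0.16, with thinned counts ITGA10 was at -0.0229, and with the replicate block NPNT was at 0.9965. Without 1 library the values ranged from -1.50 to 1.22 for ITGA1, -0.42 to 0.99 for ITGA10, -1.08 to 0.34 for ITGA5, -0.13 to 0.86 for ITGB3, -0.25 to 1.27 for LAMA1, -0.17 to 2.14 for LAMA3, -0.77 to 1.33 for LAMA5, -1.28 to 0.55 for LAMB3 and -1.24 to 3.59 for NPNT. The cause of these changes was not tested.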
